A study of Mus musculus with 2 samples.

Results

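The 50 genes described here encode the machinery that divides a cell in mitosis: mitotic kinases, the spindle checkpoint, centromere and kinetochore proteins, mitotic kinesins, spindle assembly and cytokinesis factors, and proteins that shape mitotic chromosomes. They were chosen by name, and their probes were found by matching the probes' RefSeq accessions to gene symbols. All 50 genes had at least 1 probe (80 probes in all), out of 23784 named genes on the array. The RNA came from glioblastoma stem cells of the mouse that carried, by lentivirus, either an shRNA against Gli2, a transcription factor that relays Hedgehog signals to target genes, or a non-target control shRNA. All cells were of 1 line, grown as neurospheres without serum in neural stem cell medium to which EGF and bFGF were added at 10 ng/ml each. The line came from brain tumours raised in mice with a Sleeping Beauty transposon, and both groups were stably transduced; 1 shRNA was used per group, and whether cells were pooled or cloned is not given in the labels. The comparison asks how Gli2 suppression alters the expression of these genes. There was 1 array per group, on the same slide and in the same scan, so no test was possible, no p-value is given, and the spread between cultures is unknown.

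In a dividing cell, kinetochores built on the centromeres bind the microtubules of the spindle, and the spindle checkpoint holds back the anaphase promoting complex until every chromosome is attached. Once the complex is active with its partner Cdc20, securin and cyclin B are broken down, sister chromatids separate, and a contractile ring divides the cytoplasm. Most of these genes are transcribed late in the cell cycle, which makes their RNA a common readout of how many cells are cycling. In RNA from a whole culture, fewer cells in mitosis and less RNA per mitotic cell cannot be told apart.

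The Gli2 shRNA array was brighter as a whole, with a 75th percentile of all probes at a signal of 399, against 329 on the control array. Each array was therefore scaled to its own 75th percentile, and a difference below is the scaled log2 value on the Gli2 shRNA array minus that on the control array. The error printed with a difference is that of the scanner software for both spots, and covers the spots, not the cultures. Gli2 itself, with 1 probe, gave a signal of 57.9 on the Gli2 shRNA array, against 98.1 on the control array, a difference of -1.04 ± 0.22 or 2.05-fold. With normexp, another background correction, this was -0.64. The other Gli factors differed by -0.32 (Gli1, itself a Hedgehog target) and -0.60 (Gli3), and the Hedgehog targets Ptch1 and Hhip by -0.69 and 0.14; a separate Ptch1 probe gave -0.04. The labelled cell type was checked with 10 stem cell markers, of which 9 were measured on both arrays. Sox2 (6516 on the Gli2 shRNA array, 5594 on the control array), Olig2 (2444 and 2359) and Nes (19441 and 11613) were well above background on both, whereas Prom1, which encodes CD133, was at 20.2 on the Gli2 shRNA array and not well above background on the control array (14.6). Of the markers of other cell types, 6 of 8 for neurons, 5 of 7 for astrocytes, 5 of 7 for oligodendrocytes, 3 of 8 for microglia and macrophages and 2 of 7 for endothelium and pericytes were measured on both arrays. The leukocyte gene Ptprc and the microglial genes Cx3cr1 and C1qa were not well above background on either array. Aif1 and P2ry12, also microglial, were well above background on the control array only (17.5 and 19.1, against 5.64 and 6.46 on the Gli2 shRNA array). Csf1r (432 on the Gli2 shRNA array, 390 on the control array), Tyrobp (54.3 and 63.5) and Itgam were measured on both. The summed signal before scaling was 22385 on the Gli2 shRNA array, against 23410 on the control array, for the neuronal markers. It was 7568 on the Gli2 shRNA array, against 7188 on the control array, for the astrocyte markers, most of it from Slc1a3, and 5929 on the Gli2 shRNA array, against 5202 on the control array, for the microglial ones, most of it from Itgam. After scaling, all 5 measured astrocyte markers (median -0.19) and all 3 measured microglial ones (median -0.13) lay below 0. So did both measured markers of endothelium and pericytes (median -0.26), 3 of 5 oligodendrocyte ones (median -0.35) and 2 of 6 neuronal ones (median 0.13). Of the astrocyte and microglial markers, Aqp4, Itgam and Csf1r lay just above 0 when scaled to the median probe. The part of other cell types in the differences below was not tested.

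The mitotic genes differed little between the arrays. All 50 were well above background on both, with processed signals of 302 to 40690 on the Gli2 shRNA array, against 270 to 34790 on the control array. Before scaling, 44 of the 50 genes were brighter on the Gli2 shRNA array, as the array was as a whole. Their median log2 ratio was then 0.20, against 0.28 over all genes measured on both arrays. After scaling, 35 of the 50 (70%) lay below 0, where 49.7% of the 14563 genes measured on both arrays did. Their median difference was -0.07, against 0.00 over all genes, and the differences ran from -0.59 to 0.28. Cenpa was the 1 gene at least 1.5-fold lower (2%, against a background of 6.54% of all genes), and none was at least 1.5-fold higher (background 6%). Either way, the background at 1.5-fold was 12.5%. None was past 2-fold (background 1.79% lower and 1.84% higher, 3.63% in all). Among the 9308 genes at least as bright as the dimmest of the 50 on each array, 3.57% were 1.5-fold or more lower and 2.92% higher, 6.49% in all. The 1.5-fold shares of the 50 genes thus lay below both backgrounds, but they rest on 1 gene. The bright genes share only the dimmest signals of the 50 and were not matched to them in brightness. Whether the 50 differ from them was not tested.

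**Figure D1:**
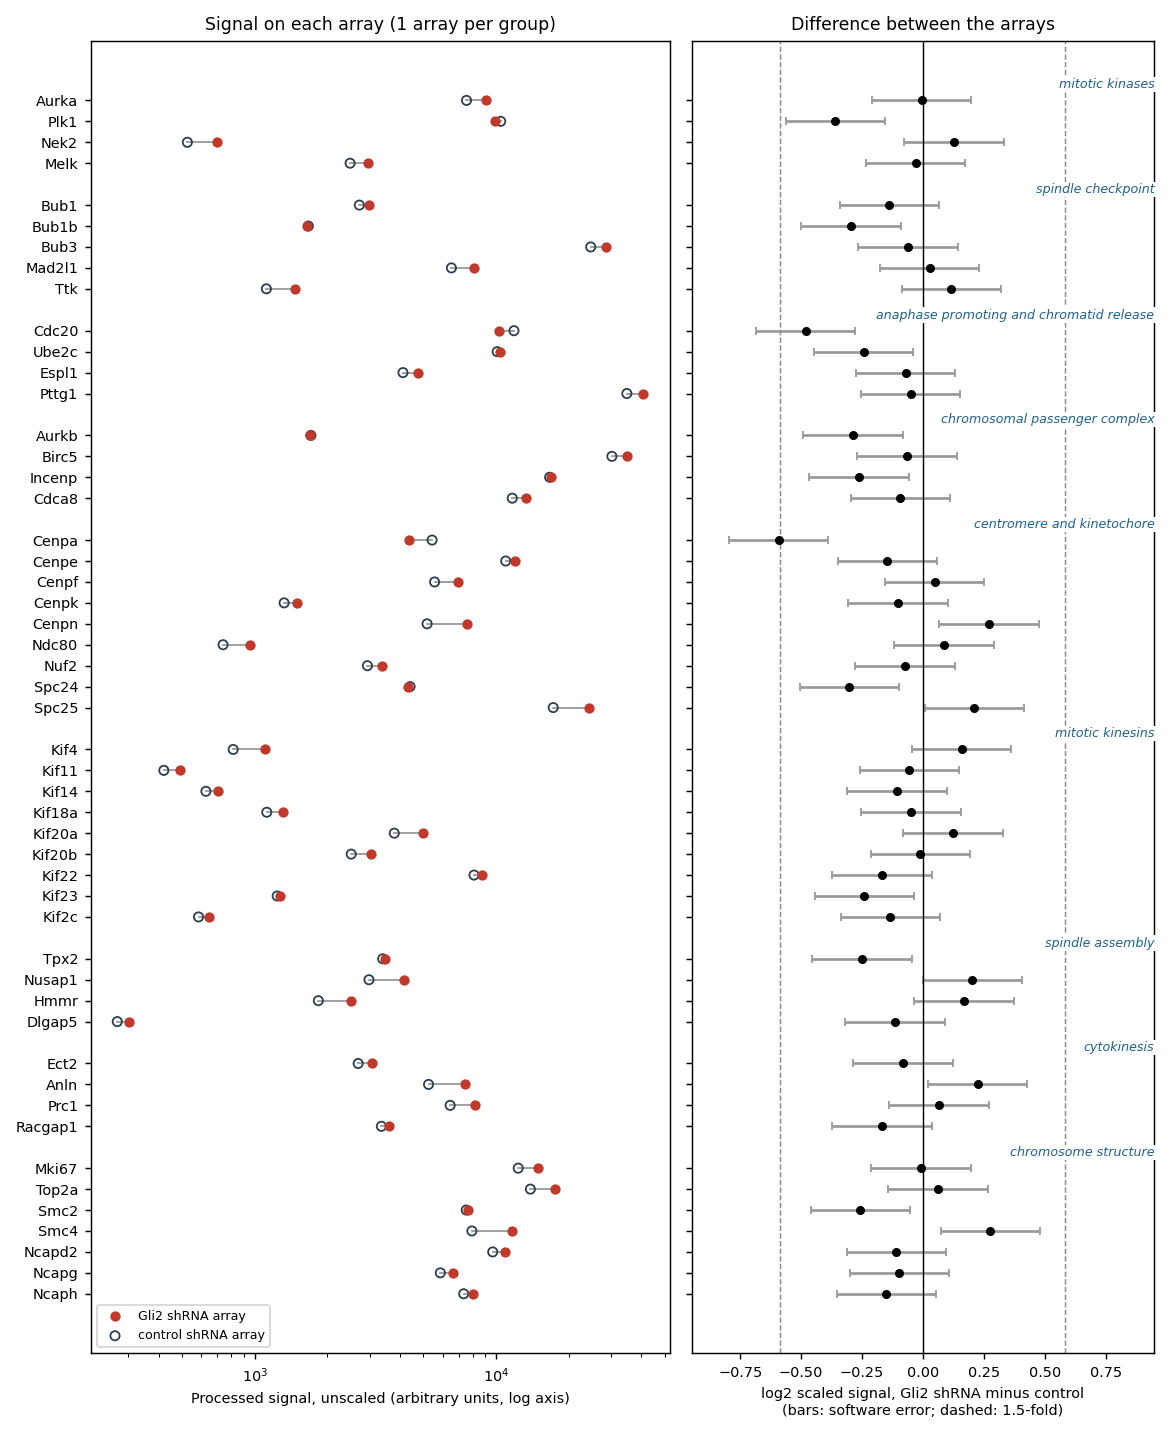
Left, processed signal (arbitrary units, log axis, before scaling) of each of the 50 mitotic genes on the Gli2 shRNA array (filled) and the control shRNA array (open); right, the scaled log2 difference, with the software error as bars and 1.5-fold as dashed lines. 44 genes are brighter on the Gli2 shRNA array before scaling, as the array is as a whole, and after scaling Cenpa alone reaches the 1.5-fold line.

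The sign of such small differences depended on how the arrays were scaled. Scaling to the median probe in place of the 75th percentile raised every difference by 0.14. It left 16 of the 50 genes below 0 and put their median at 0.06, while the median of all genes became 0.14. The background at 1.5-fold became 4.23% lower and 9.37% higher with that scaling, against 6.54% and 6% with the 75th percentile. Since the shift is common to all genes, 35 of the 50 lay below the median gene with either scaling. That count was 30 with normexp and 28 when genes near background were kept in the comparison. Under all 11 ways of processing the arrays, 31 of the 50 genes (62%) kept 1 sign on their brightest probe, against 69.2% of all measured genes. Below 0 throughout were 32% of the 50 genes, close to the 29.8% of all measured genes, and above 0 throughout 30%, against 39.4%. The 16 below 0 were Cenpa, Cdc20, Plk1, Spc24, Bub1, Bub1b, Aurkb, Incenp, Smc2, Tpx2, Ube2c, Kif22, Kif23, Cenpe, Ncaph and Racgap1. The 15 above 0 were Smc4, Cenpn, Cenpf, Anln, Spc25, Nusap1, Hmmr, Kif4, Kif20a, Nek2, Ttk, Ndc80, Prc1, Top2a and Mad2l1. The sign of the other 19 depended on the processing. The 50 genes had an SD of 0.19 around their mean, against 0.42 over all genes and 0.31 over the genes at least as bright.

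The software error of the difference was 0.20 to 0.21 for all 50 genes. By this yardstick, added after the values were seen, 15 of the 50 (30%) differed by more than their error, against a background of 46.2% of all genes. Among the 9308 genes at least as bright it was 40.6%. Of the 15, 11 were lower (22%, background 22.3%, or 19.3% of the bright genes). The other 4 were higher (8%, background 23.8%, or 21.3%). The share that was lower was thus close to both backgrounds. Cenpa and Cdc20 were the genes apart by more than 2 times the error (4%, background 19.5%, or 14.1%).

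Promoter windows were read for elements of late cell cycle genes. The CHR (cell cycle genes homology region, TTTGAA) is the element that MuvB complexes, with B-Myb and Foxm1, use on late cell cycle genes, and the CCAAT box (CCAAT) is bound by NF-Y. Promoter windows of 300 bases, from 250 before to 50 after the start of a transcript, were taken from RefSeq on GRCm38.p6, and 43 of the 50 genes matched an entry. Shown 5′ to 3′ in the direction of transcription are the windows of Cenpa, Cdc20 and Plk1, the lowest of the 50 genes, and of Cenpn and Spc25, the highest of the genes that hold both elements. Capitals mark CHR and CCAAT matches on either strand (TTTGAA or its complement TTCAAA for the CHR; CCAAT or its complement ATTGG for the CCAAT box).
Cenpa (chr5:30666636-30666935, plus strand): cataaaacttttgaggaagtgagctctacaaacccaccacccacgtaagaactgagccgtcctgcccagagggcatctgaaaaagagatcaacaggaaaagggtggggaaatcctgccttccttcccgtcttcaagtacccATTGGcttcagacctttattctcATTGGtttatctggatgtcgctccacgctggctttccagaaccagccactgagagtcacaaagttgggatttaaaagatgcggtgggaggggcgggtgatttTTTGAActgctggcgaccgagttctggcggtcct
Cdc20 (chr4:118437294-118437593, minus strand): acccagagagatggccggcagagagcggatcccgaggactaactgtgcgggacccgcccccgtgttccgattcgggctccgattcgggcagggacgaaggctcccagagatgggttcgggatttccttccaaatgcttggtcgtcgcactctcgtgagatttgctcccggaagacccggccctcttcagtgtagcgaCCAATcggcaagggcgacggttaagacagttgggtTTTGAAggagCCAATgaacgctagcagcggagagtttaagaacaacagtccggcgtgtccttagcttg
Plk1 (chr7:122159185-122159484, plus strand): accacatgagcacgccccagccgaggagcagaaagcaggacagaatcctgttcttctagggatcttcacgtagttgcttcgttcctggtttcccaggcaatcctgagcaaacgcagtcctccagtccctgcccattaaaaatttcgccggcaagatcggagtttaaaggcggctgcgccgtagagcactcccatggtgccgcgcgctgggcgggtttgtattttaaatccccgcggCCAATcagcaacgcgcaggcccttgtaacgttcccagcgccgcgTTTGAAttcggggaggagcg
Cenpn (chr8:116921490-116921789, plus strand): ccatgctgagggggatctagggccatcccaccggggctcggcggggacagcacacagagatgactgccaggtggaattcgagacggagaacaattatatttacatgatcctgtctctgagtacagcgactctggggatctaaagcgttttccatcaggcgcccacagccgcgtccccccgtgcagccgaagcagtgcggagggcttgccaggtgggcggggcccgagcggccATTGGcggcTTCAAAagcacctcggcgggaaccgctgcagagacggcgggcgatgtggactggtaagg
Spc25 (chr2:69206164-69206463, minus strand): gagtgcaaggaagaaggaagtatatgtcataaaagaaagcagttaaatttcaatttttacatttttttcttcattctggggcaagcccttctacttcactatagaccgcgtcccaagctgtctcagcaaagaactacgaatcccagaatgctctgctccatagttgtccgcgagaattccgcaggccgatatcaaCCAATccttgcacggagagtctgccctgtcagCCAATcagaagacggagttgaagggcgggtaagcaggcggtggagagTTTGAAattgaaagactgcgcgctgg

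Each of the 5 windows held 1 CHR match and at least 1 CCAAT match, which for Cenpn and Spc25 follows from how they were chosen. Of the other genes at the high end, Anln (0.22) had a CHR but no CCAAT match and Nusap1 (0.20) had neither. In Cdc20 the CHR began 18 bases before the start, and in Cenpn 9 bases before it on the other strand. In Cenpa, Spc25 and Plk1 it began after the start, at bases 17, 25 and 31 of the transcript. The CCAAT match of Plk1 began 14 bases and that of Cenpn 18 bases before the start.

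Across the genes with a window, 31 of 43 (72.1%) had a CHR match, against 14.8% of the 11573 genes measured on both arrays that have a window and 20.2% of all 27025 genes in the table. A CCAAT match was found in 31 of 43 (72.1%), against 43% of the measured genes, and both in the same window in 27 (62.8%), against 6.13%. Of the 42 CHR matches of the mitotic genes, 31 (73.8%) began within 50 bases of the start, where 24% of the matches of all measured genes did. The palindromic variant TTTAAA was found in 9 (20.9%, against 11%). The E2F motif, searched as TTTCGCGC or TTTGGCGC, was found in 2 (4.65%, against 1.68%). All motifs were searched on both strands, and matches to different motifs may share bases. The 31 genes with a match had a median of -0.07 (range -0.59 to 0.27), and the 12 without one a median of -0.06 (range -0.15 to 0.20). The lowest gene without a match was Ncaph (-0.15). The 9 genes with a window below it (Cenpa, Cdc20, Plk1, Bub1b, Smc2, Ube2c, Kif23, Racgap1 and Kif22) thus have a CHR by definition. The same holds at the high end, where the highest gene without a match was Nusap1 (0.20). Cenpn, Anln and Spc25, the genes with a window above it, have a CHR by definition too. Nothing about the CHR can be read from either end. Spc24, Aurkb, Incenp and Tpx2 also lay below Ncaph but had no window to read, and neither had Smc4, the highest of the 50. The median was -0.09 with and -0.04 without a CCAAT match, and -0.11 with and -0.06 without the TTTAAA variant. These differences between subsets were not tested.

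**Figure D2:**
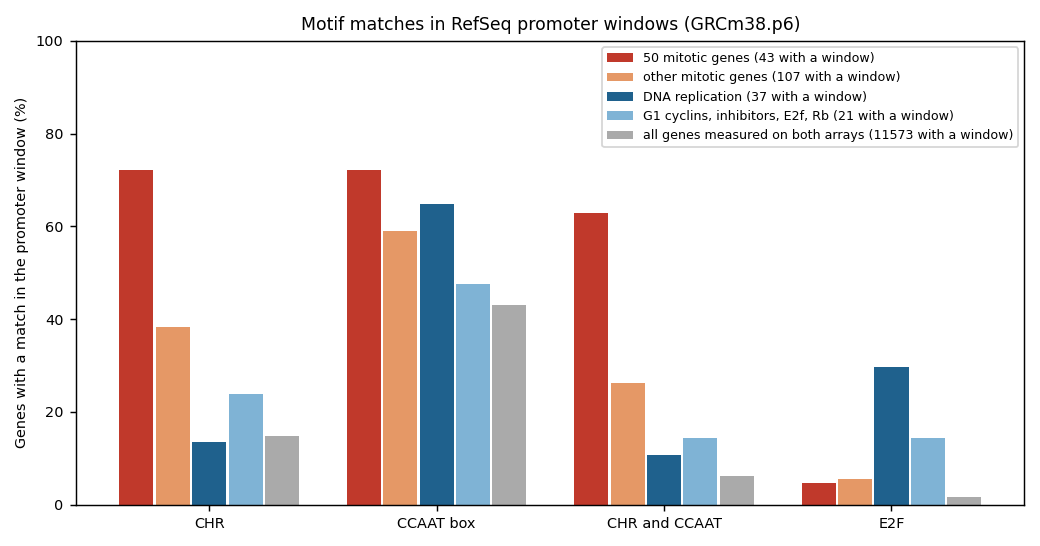
Share of genes (%) with at least 1 match to the CHR, the CCAAT box, both or the E2F motif in a RefSeq promoter window, for the 50 mitotic genes, 127 other mitotic genes, 45 DNA replication genes, 28 G1 genes and all genes measured on both arrays; the legend gives how many of each had a window. The CHR bar is at 72.1% for the mitotic genes, 13.5% for replication genes and 14.8% for all measured genes, while the E2F bar is at 29.7% for replication genes.

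Since the shRNA targets a Gli factor, the GLI motif GACCACCCA was searched as well. It was found in 1 of the 43 genes (2.33%, against 0.233% of the measured genes), Espl1, which encodes separase. The match begins 222 bases before the start, and it is shown in capitals with 20 bases on each side.
Espl1 (chr15:102296051-102296099, plus strand): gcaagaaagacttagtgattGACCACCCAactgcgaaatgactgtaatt
Espl1 had a signal of 4746 on the Gli2 shRNA array, against 4114 on the control array, a scaled difference of -0.07 ± 0.20. The gene with the GLI match thus lay at the median of the 50.

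Among the mitotic kinases, Plk1, which drives mitotic entry, spindle assembly and cytokinesis, was the lowest. Its signal was 9868 on the Gli2 shRNA array, against 10446 on the control array, a difference of -0.36 ± 0.20. Plk1 was 1 of 6 genes dimmer on the Gli2 shRNA array before scaling. This only restates that its difference was larger than 0.28, the log2 shift that scaling removed. Nek2, a kinase of centrosome separation, was the highest of this group, with 697 on the Gli2 shRNA array, against 526 on the control array (0.13 ± 0.20). Aurka, the kinase of centrosomes and spindle poles, differed by -0.01, and Melk, a kinase of proliferating progenitors, by -0.03. Both values were within the error.

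Of the 5 spindle checkpoint genes, Bub1b, which encodes the checkpoint inhibitor BubR1, was the lowest. It had a signal of 1648 on the Gli2 shRNA array, against 1669 on the control array (-0.29 ± 0.20). Ttk, the kinase Mps1 that starts checkpoint signalling at kinetochores, was the highest, with 1470 on the Gli2 shRNA array, against 1118 on the control array (0.12 ± 0.20). Its other 2 probes gave 0.11 and -0.02. Bub1, a kinetochore kinase, differed by -0.14, Bub3, its binding partner, by -0.06, and Mad2l1, which encodes the Cdc20 inhibitor Mad2, by 0.03.

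The 4 genes of anaphase onset among the 50 all lay below 0, with a median of -0.16. Below 0 were 70% of the 50 genes and 49.7% of all genes. Of 15 further genes of the anaphase promoting complex, 8 lay below 0 (median -0.00). Cdc20, the activator of the anaphase promoting complex, had a signal of 10289 on the Gli2 shRNA array, against 11856 on the control array, a difference of -0.48 ± 0.20 or 1.40-fold. A separate Cdc20 probe gave 5023 on the Gli2 shRNA array, against 5868 on the control array (-0.50 ± 0.20). Both Cdc20 probes were thus lower by nearly the same amount. Ube2c, the ubiquitin-conjugating enzyme of the complex, differed by -0.24. Pttg1, which encodes securin, the inhibitor of separase, was the highest of the group, with 40690 on the Gli2 shRNA array, against 34790 on the control array (-0.05 ± 0.20).

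The chromosomal passenger complex, which corrects faulty attachments and later acts in cytokinesis, also had all 4 genes below 0 (median -0.18), where 70% of the 50 genes were. Its kinase Aurkb was the lowest, with 1699 on the Gli2 shRNA array, against 1710 on the control array (-0.29 ± 0.20, and -0.15 on its other probe). Incenp, the scaffold of the complex, gave -0.26 on its brightest probe and -0.21 on the other. Cdca8, which encodes borealin, differed by -0.09. Birc5, which encodes survivin, was the highest, with 34914 on the Gli2 shRNA array, against 30163 on the control array (-0.07 ± 0.20). With median scaling each of the differences in these groups is 0.14 higher, which puts Birc5, Cdca8, Espl1 and Pttg1 above 0.

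The centromere and kinetochore genes had the largest SD of the role groups, 0.27 over 9 genes. Between their quartiles they spanned 0.23, less than the spindle assembly genes (0.33) and the genes of anaphase onset (0.24). Cenpa, the histone H3 variant that marks centromeres, was the lowest of all 50. Its signal was 4364 on the Gli2 shRNA array, against 5431 on the control array, a difference of -0.59 ± 0.20 or 1.51-fold, just past the 1.5-fold line. This puts it at percentile 6.34 of all genes measured on both arrays. Cenpa has 1 probe, and with normexp (-0.54), median scaling (-0.46), quantile normalization (-0.57) and cyclic loess (-0.58) it fell short of 1.5-fold. Cenpn, a reader of Cenpa nucleosomes, was the highest of this group, with 7575 on the Gli2 shRNA array, against 5178 on the control array (0.27 ± 0.20). The histone variant and its reader thus lay near opposite ends of the range.

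The 4 subunits of the NDC80 complex, the main microtubule coupler of the kinetochore, were not at 1 common difference. Spc24 had 4329 on the Gli2 shRNA array, against 4403 on the control array (-0.30 ± 0.20), and its dimer partner Spc25 had 24180 on the Gli2 shRNA array, against 17236 on the control array (0.21 ± 0.20, and 0.27 on its other probe). Ndc80 itself differed by 0.09 and Nuf2 by -0.07. The outer kinetochore motor Cenpe differed by -0.15, the corona protein Cenpf by 0.05 (0.06 on its other probe), and Cenpk of the inner kinetochore by -0.10.

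Of the 9 mitotic kinesins, 7 lay below 0, all close to it (median -0.06). Kif23, the motor of centralspindlin at the spindle midzone, was the lowest, with 1272 on the Gli2 shRNA array, against 1240 on the control array (-0.24 ± 0.20, and -0.17 on its other probe). Kif4, a chromosome-bound motor that also acts at the midzone, was the highest, with 1102 on the Gli2 shRNA array, against 815 on the control array (0.16 ± 0.20). Kif20a, a motor of the midzone that recruits the passenger complex, differed by 0.12. Kif22, the chromokinesin Kid, differed by -0.17, the microtubule depolymerase Kif2c by -0.13 and the cytokinesis motor Kif14 by -0.11. Kif11, the motor that separates spindle poles, differed by -0.06, Kif18a, which dampens chromosome movements, by -0.05, and Kif20b by -0.01. None but Kif23 was beyond its error.

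Spindle assembly factors went both ways. Tpx2, which activates Aurora A on the spindle, was the lowest, with 3453 on the Gli2 shRNA array, against 3391 on the control array (-0.25 ± 0.20). Nusap1, a microtubule-bundling protein of the spindle, was the highest, with 4147 on the Gli2 shRNA array, against 2975 on the control array (0.20 ± 0.20). Hmmr, a spindle and centrosome protein, gave 0.17 on its brightest probe and 0.16 and -0.18 on its other probes, so its probes disagree in sign, although the brightest probe stayed above 0 under each way of processing the arrays. Dlgap5, which stabilises kinetochore fibres, differed by -0.12.

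Cytokinesis genes were likewise divided. Racgap1, the partner of Kif23 in centralspindlin, was the lowest, with 3609 on the Gli2 shRNA array, against 3348 on the control array (-0.17 ± 0.20, and -0.23 on its other probe). Both subunits of centralspindlin were therefore below 0 on all 4 of their probes, though with median scaling Racgap1 was near 0. Anln, the anillin scaffold of the contractile ring, was the highest, with 7434 on the Gli2 shRNA array, against 5251 on the control array (0.22 ± 0.20). Its other probe, near background at 34.7 on the Gli2 shRNA array and 30.5 on the control array, gave -0.09 ± 0.30. Ect2, the RhoA activator at the midzone, differed by -0.08 and Prc1, which bundles midzone microtubules, by 0.07.

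Among the genes of chromosome structure, the proliferation markers were level. Mki67, which encodes the Ki-67 protein that coats mitotic chromosomes, had a signal of 14884 on the Gli2 shRNA array, against 12345 on the control array (-0.01 ± 0.20). Top2a, the topoisomerase that untangles sister chromatids, gave 0.06 on its brightest probe and -0.05 on the other. The 2 ATPase subunits of condensin, the complex that compacts mitotic chromosomes, were apart. Smc4 was the highest of all 50, with 11648 on the Gli2 shRNA array, against 7937 on the control array (0.28 ± 0.20), and its other probes gave 0.15 and 0.11. Smc2 had 7629 on the Gli2 shRNA array, against 7520 on the control array (-0.26 ± 0.20), and its other probes gave -0.27 and -0.33. All 3 probes of each subunit thus had the same sign, above 0 for Smc4 and below 0 for Smc2. The condensin I subunits Ncapd2 (-0.11), Ncapg (-0.10) and Ncaph (-0.15, and 0.00 on its other probe) lay between them.

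The probes of 1 gene gave a measure of how far such small differences can be read. For 24 of the 50 genes at least 1 further probe was measured on both arrays, 29 such probes in all. They differed from the brightest probe of their gene by a median of 0.06, less than the software error of 0.20, and by 0.13 over the 6966 such probes of all genes. The sign was the same for 24 of the 29, against 73.4% of such probes of all genes. Across the 29 probes the differences correlated with those of the brightest probes (Pearson r = 0.81). Probes of 1 gene share the RNA and the arrays, so this describes the measurement and not the cultures. The largest gaps were in Hmmr (0.34) and Anln (0.31).

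**Figure D3:**
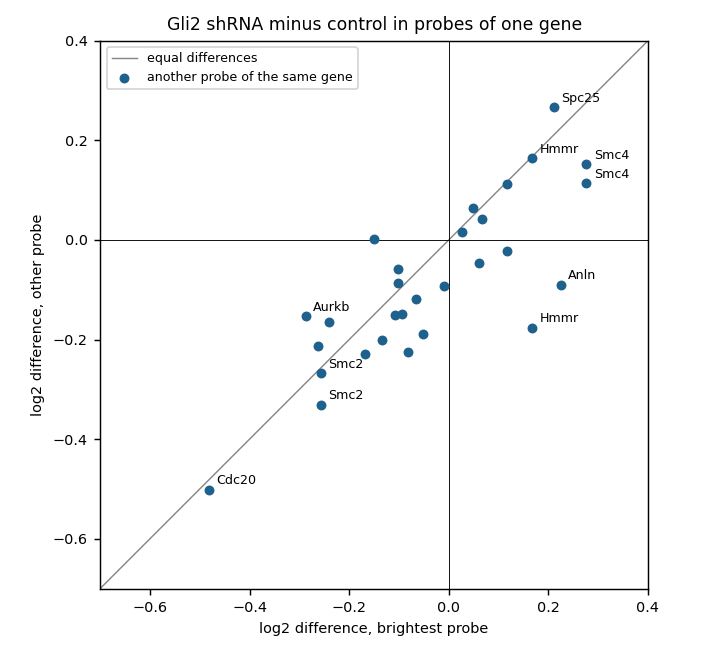
Log2 difference (Gli2 shRNA minus control) of each of the 29 additional measured probes of the mitotic genes, against that of the brightest probe of the same gene; the grey line marks equal values. 24 points have the same sign on both axes, Cdc20 is the lowest on both, and Hmmr and Anln hold the points farthest from the line.

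To set the 50 genes beside the rest of the mitotic programme, 127 further genes of the same processes were listed, all of them measured on both arrays. Of these, 86 (67.7%) lay below 0, close to the 70% of the 50 genes, with a median of -0.11 and a range of -1.30 to 0.35. At 1.5-fold, 6 were lower (4.72%, background 6.54%) and none was higher (background 6%). By the error yardstick, 43 were lower by more than their error (33.9%, background 22.3%) and 9 higher (7.09%, background 23.8%). These counts hold for the 75th percentile scaling. Ccnb2, which encodes cyclin B2, was the lowest. It had a signal of 3455 on the Gli2 shRNA array, against 7027 on the control array, a difference of -1.30 ± 0.20 or 2.46-fold on its single probe. Mad1l1, which encodes the checkpoint protein Mad1 that anchors Mad2 at kinetochores, had 594 on the Gli2 shRNA array, against 1090 on the control array (-1.15 ± 0.20, and -1.19 on its other probe). Both were more than 2-fold lower (2 of 127, background 1.79% of all genes), although with normexp Mad1l1 was at -0.997, just short of it. Mad2l1, whose product binds Mad1, was at 0.03.

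The other 4 genes past 1.5-fold each had 1 probe. Nfya, the DNA-contacting subunit of the CCAAT-binding factor NF-Y, had 489 on the Gli2 shRNA array, against 717 on the control array (-0.83 ± 0.20). Kif24, a centriolar kinesin, had 185 on the Gli2 shRNA array, against 257 on the control array (-0.75 ± 0.21). Sgo2a, a shugoshin that protects centromeric cohesin, had 329 on the Gli2 shRNA array, against 445 on the control array (-0.72 ± 0.20), and was under 1.5-fold with normexp (-0.58) and median scaling (-0.58). Pmf1, a subunit of the MIS12 complex of the kinetochore, had 1462 on the Gli2 shRNA array, against 1832 on the control array (-0.60 ± 0.20) and was under 1.5-fold with normexp (-0.56) and median scaling (-0.47). The highest of the 127 was Zwint, a kinetochore protein, at 0.35.

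The partners of cyclin B2 in mitotic entry were closer to 0. Cyclin B1, encoded by Ccnb1, differed by -0.24 ± 0.20, with other probes at -0.31 and -0.39. Ccna2, the cyclin A2 gene, differed by -0.29 (-0.32 on its other probe), and their kinase Cdk1 by -0.14 on the brightest probe and -0.41 on the other. The transcription factors of late cell cycle genes, Foxm1 and Mybl2 (B-Myb), differed by -0.26 (-0.11 on its other probe) and -0.30. By process, the medians of the other mitotic genes were -0.23 for transcription factors (6 of 9 below 0), -0.16 for kinesins, spindle and midbody (23 of 27), -0.13 for mitotic entry (12 of 16), -0.13 for further condensin and chromosome genes (4 of 5), -0.11 for centriole duplication (6 of 8), -0.08 for centromere, kinetochore and checkpoint (20 of 34), -0.02 for cohesin (7 of 13) and -0.00 for the anaphase promoting complex (8 of 15).

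**Figure D4:**
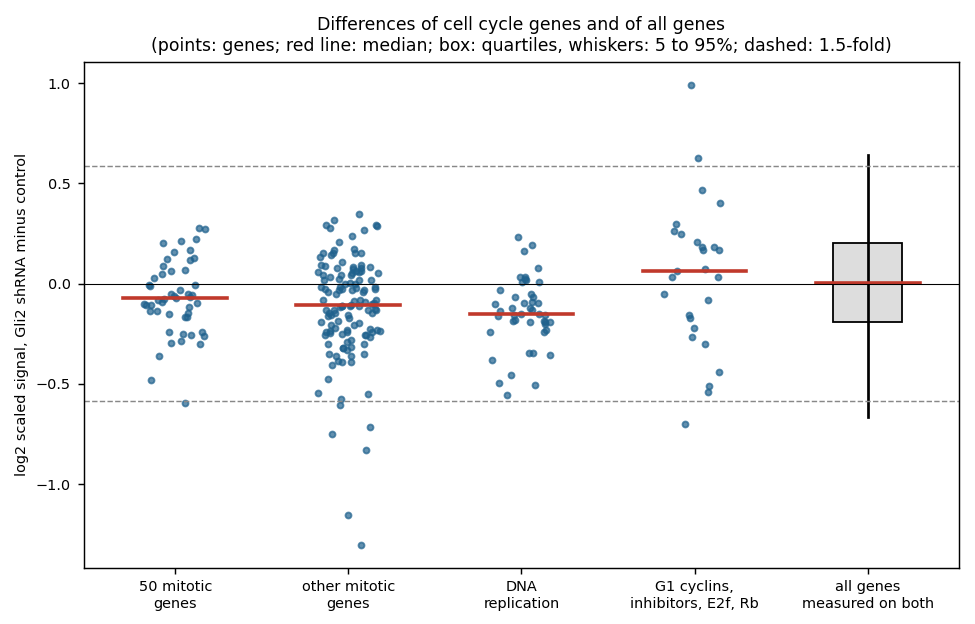
Log2 difference (Gli2 shRNA minus control) of the 50 mitotic genes, 127 other mitotic genes, 45 DNA replication genes and 27 G1 genes (points, with the median as a red line), and of all 14563 genes measured on both arrays (box of quartiles, whiskers from 5 to 95%). The medians are -0.07, -0.11, -0.15 and 0.06, and Ccnb2 and Mad1l1 are the lowest points at -1.30 and -1.15.

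The nearest processes of the cell cycle had medians on either side of that of the 50 genes (-0.07, SD 0.19). DNA replication genes had a median of -0.15 with 35 of 45 below 0 (77.8%, background 49.7%). None was 1.5-fold apart (background 12.5%), and the SD was 0.18. Genes of G1 cyclins, Cdk inhibitors, E2f and Rb factors had a median of 0.06 with 11 of 27 below 0 (40.7%) and a wider SD of 0.37. At 1.5-fold, 1 of these G1 genes was lower (3.70%, background 6.54%) and 2 were higher (7.41%, background 6%). Their members included Cdk6 (197 on the Gli2 shRNA array, against 81.8 on the control array) at 0.99 and the inhibitor Cdkn1a (1741 on the Gli2 shRNA array, against 930 on the control array) at 0.63. Tfdp2, a dimerisation partner of E2f factors, was lower, with 274 on the Gli2 shRNA array, against 367 on the control array (-0.70). Ccne2, the cyclin E2 gene, is the 1 of the 28 listed that is not among the 27. Its signal was 12.6 on the Gli2 shRNA array, which is not well above background, against 38.0 on the control array, at least 3.04-fold lower by the dimmest signal well above background. With 1 array per group, the differences between these lists and the 50 mitotic genes were not tested.

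**Figure D5:**
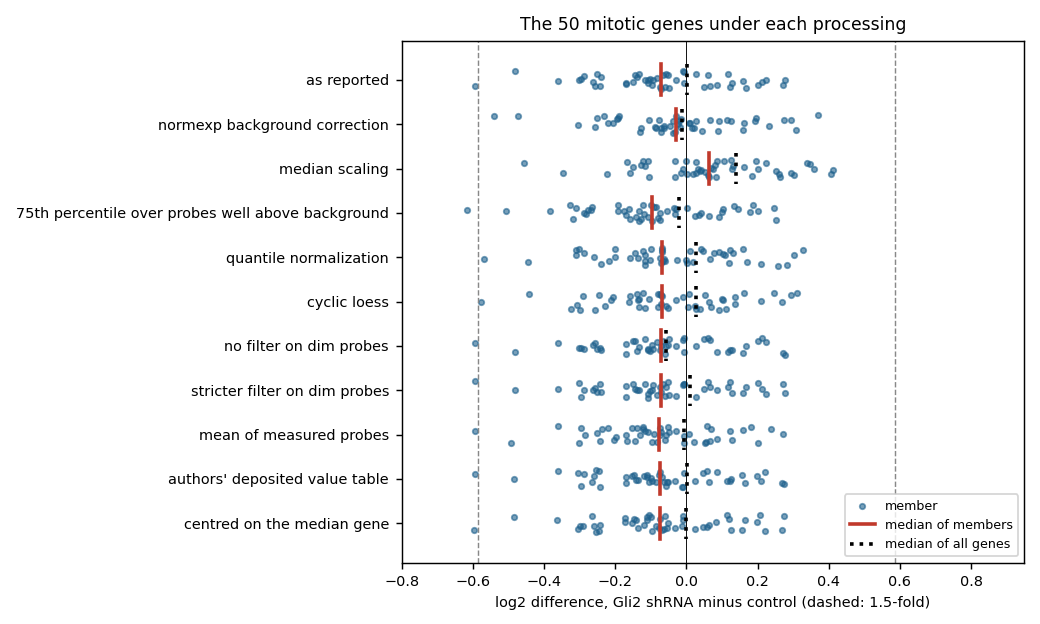
Log2 difference (Gli2 shRNA minus control) of the 50 mitotic genes under each processing (points), with the median of the 50 (red) and of all genes (dotted); dashed lines mark 1.5-fold. The median of the 50 lies below that of all genes in every row, including median scaling, which moves both above 0 (0.06 and 0.14).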

How the data were processed

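RNA of 2 samples was labelled with Cy3 for 1-colour hybridisation, per the labels' protocols. Feature Extraction 12.1.0.3 (Agilent) turned the scans into spot values on a design gridded to mouse build mm9, per the file headers. For every spot the deposited files give a background-subtracted intensity, the software's error of it and quality flags. A table of values that the authors deposited is in log2 units, and matches the log2 of those intensities less a constant per array (8.64 on the Gli2 shRNA array, 8.36 on the control array), which puts its 75th percentile at 0. The column medians are -3.69 for Gli2 shRNA and -3.55 for control.

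Control spots and outlier spots were left out (120 on the Gli2 shRNA array, 126 on the control array), spots of 1 probe were averaged on the log2 scale, and each array was scaled to its 75th percentile over 56595 probes. A probe was measured where the software marked it well above background (57.1% of probes on the Gli2 shRNA array, 59.5% on the control array). 34560 probes matched 1 gene by RefSeq accession (GRCm38.p6), and the brightest probe stood for a gene. The error of a difference combines the software errors of both spots. The number of arrays limits the precision. Computations used Python 3.11.15, pandas 2.3.3 and limma 3.58.1 (R 4.3.3) and were tested on simulated data. Normexp used the median spot signal, since the mean signal was not among the columns.

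The 50 genes and the lists were chosen with earlier results of these data known. Genes named are all 50, with both signals for those 1.5-fold apart, the lowest and highest of each of the 9 role groups, and, outside the rule and chosen after their values were seen, Espl1, Spc24, Spc25 and Mki67. Of the other mitotic genes, those 1.5-fold apart are named, with Ccnb1, Ccna2, Cdk1 and Foxm1; of others, Gli and Hedgehog genes. Mybl2, Zwint, Cdk6, Cdkn1a, Tfdp2, Ccne2 and the named markers were chosen after their values were seen.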

Additional observations from a re-analysis of the deposited data

How the results depend on the processing

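The results were recomputed under 9 alternatives and 1 added after the data were seen (differences centred on the median gene). With median scaling the median of the 50 genes was 0.063 and 16 lay below 0, and the medians of other mitotic, replication and G1 genes were 0.027, -0.015 and 0.20. The count of genes 1.5-fold or more lower was 0 with normexp, median scaling, quantile normalization and cyclic loess. Cenpa was then at -0.54, -0.46, -0.57 and -0.58, short of the line. Otherwise the median of the 50 genes stayed between -0.10 and -0.03, and 30 to 35 lay below 0. No gene was 1.5-fold higher under any alternative. The sign was the same under all 11 settings for 31 of the 50 genes (62%, against 69.2% of all measured genes). Of these, 16 were below 0 (32%, against 29.8%) and 15 above (30%, against 39.4%). Cenpa was the lowest under each of the 11 settings, and Smc4 or Cenpn the highest. Ccnb2 stayed past 2-fold in all 11, and Gli2 moved to -0.64 with normexp. Without replicates, no array could be left out. No paired analysis was possible because each group holds 1 array. Dim probes limited the comparison little, since all 50 genes were well above background on both arrays.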

Other observations

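The 50 mitotic genes lie on 17 chromosomes. Chromosome 2 holds 9 of them (18%), where 8.33% of all named genes lie, with a median difference of -0.14, and chromosomes 4, 7 and 11 hold 5 each. A Kif14 probe, at 11.4 on the Gli2 shRNA array and 17.8 on the control array, was well above background on the control array only and is the 1 of the 80 probes not measured on both. Across the 50 genes the difference had no relation to the mean scaled level (Pearson r = -0.04, Spearman rho = -0.05, across genes, which share both arrays). In promoter windows of the replication genes the E2F motif was found in 11 of 37 (29.7%) and the CHR in 5 (13.5%), and among the 107 other mitotic genes with a window the CHR was found in 41 (38.3%).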
